A study of Mus musculus with 12 samples.

Results

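The eyes absent genes Eya1, Eya2, Eya3 and Eya4 and the sine oculis homeobox genes Six2, Six3, Six4, Six5 and Six6 were taken by name as 9 of the 38720 genes listed in each of the deposited tables. They were measured by poly-A RNA-seq in retinas of newborn (postnatal day 0) C57/BL6 mice in which the histone methyltransferase gene Ezh2 had been targeted with Math5-Cre. In mKO pups, Cre was expressed from the Math5 locus and both Ezh2 alleles had loxP sites around the exons of the SET domain. Their comparators are labelled wild type (WT), although floxed littermates were the default controls of the study. Math5 is switched on in cells that are leaving the cycle to become retinal ganglion cells (RGCs) and some other early neurons, and Cre acts in only part of the RGCs. Dissociated retinal cells were separated with magnetic beads that bind CD90 (Thy-1), a surface protein of RGCs, and both the bound cells (RGCs) and the remaining cells (non-RGCs) were sequenced, with 3 libraries for each genotype and fraction and 12 libraries in all. The comparison asked whether these genes differ between mKO and WT in the bound fraction and in the remaining cells. The remaining cells can also include cells in which Cre was active.

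The proteins of the sine oculis family are homeodomain transcription factors, and Eya proteins are their coactivators, which bind to them through a conserved carboxy-terminal domain that also has phosphatase activity. Together with Pax and Dach proteins they form a regulatory network that was first described in the fly eye, where their counterparts are sine oculis and eyes absent. In vertebrates, Six3 and Six6 are needed for the eye field and for retinal progenitors, whereas Six2, Six4, Eya1 and Eya4 are better known from kidney, muscle, ear and cranial placodes. Ezh2 is the catalytic subunit of polycomb repressive complex 2, which trimethylates lysine 27 of histone H3 at the promoters of many silent developmental regulators, and genes of this class with CG-rich promoters are typical targets of the complex.

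Library depth was 10600964 to 13014004 reads on genes in the RGC libraries and 7139633 to 12828281 in the non-RGC libraries. Within a group, A names the library with the most reads and C the one with the fewest, and the letters do not pair libraries across groups. Library C stood apart in both WT groups, where its chi-square per gene against A and B was 19.2 to 24.6, compared to 5.27 and 5.6 between A and B. In mKO non-RGCs it was 29.1 between A and C, 11 between B and C and 9.76 between A and B, and in mKO RGCs it was 3.76 to 4.87. The Ezh2 count in mKO RGCs was 1354, 1476 and 1443 normalized reads (reads divided by the size factor of the library), and in WT RGCs it was 1190, 1206 and 1678. The groups overlapped, and a count over the whole gene does not measure the loss of the SET domain exons. The Ezh2 log2 fold change was 0.087 in RGCs (adjusted p = 0.637 by limma) and 0.13 in non-RGCs (adjusted p = 0.584 by limma). The paper reports a changed Ezh2 level in mKO RGCs by RNA-seq, and a reduced one by qPCR and Western blot. No such RNA-seq change was seen in these counts. The fractions were checked with a list of 10 RGC markers, whose summed level was 27980 to 30430 in WT RGCs and 20380 to 21420 in mKO RGCs, whereas it was 3687 to 3915 in WT non-RGCs and 4842 to 6315 in mKO non-RGCs. RGC markers were therefore richer in the bound fraction, but 8 retinal progenitor markers still summed to 10000 to 17800 there. In bulk libraries like these, fewer cells of a type and less RNA per cell cannot be told apart.

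The 3 genes on which the RGC comparison turned, Six2, Six3 and Six4, have promoters of different base composition. The sequences of the 250 bases before the start site are shown with each CG pair in capitals, because CG-rich promoters are the class that polycomb complexes are known for. They are RefSeq sequences on GRCm38.p6, read 5′ to 3′ along the gene, and 7 of the 9 genes had one. That of Six2 lies on chr17:85688255-85688504 (minus strand), that of Six3 on chr17:85620584-85620833 (plus strand) and that of Six4 on chr12:73113246-73113495 (minus strand).
Six2: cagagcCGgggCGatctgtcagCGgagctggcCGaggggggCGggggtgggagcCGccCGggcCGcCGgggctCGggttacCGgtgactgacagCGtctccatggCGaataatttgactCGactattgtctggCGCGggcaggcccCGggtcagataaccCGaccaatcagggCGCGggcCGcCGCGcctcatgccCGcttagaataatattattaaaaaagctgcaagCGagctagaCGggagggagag
Six3: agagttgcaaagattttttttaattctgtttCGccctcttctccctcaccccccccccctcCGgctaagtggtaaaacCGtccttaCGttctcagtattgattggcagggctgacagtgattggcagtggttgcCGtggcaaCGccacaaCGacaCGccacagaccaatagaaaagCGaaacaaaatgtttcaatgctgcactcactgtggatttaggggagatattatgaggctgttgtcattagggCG
Six4: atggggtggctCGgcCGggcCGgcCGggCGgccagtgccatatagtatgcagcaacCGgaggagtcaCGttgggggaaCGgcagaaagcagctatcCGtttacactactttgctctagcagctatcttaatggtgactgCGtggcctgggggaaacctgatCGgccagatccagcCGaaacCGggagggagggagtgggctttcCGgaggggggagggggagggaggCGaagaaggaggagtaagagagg

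The Six2 promoter held 26 CG pairs, and 9.59% of the 32851 mouse promoters of this length held as many. The Six4 promoter held 15 (27.3% of promoters) and that of Six3 held 10 (37.8%), compared to a median of 6. Among the other members with a promoter sequence, Eya4 held 35 (2.97%) at its first start site and 25 (10.7%) at its second. Eya3 held 18 (21.7%), Six6 held 17 (23.5%) and Six5 held 13 (31.5%). The number of CG pairs therefore did not set Six2, Six3 and Six4 apart from the other members. The sequence TCAGGTTTC, the motif that these homeodomain proteins bind in muscle genes, was searched on both strands and was found in this Six4 promoter alone among those of the 7 genes, on the reverse strand, while 127 of all promoters (0.387%) held it. Six4 has a second annotated start site on chr12:73113426-73113675, whose promoter held 13 CG pairs and not this motif. No binding or histone mark was measured in these samples, so the promoters stand here as a description.

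The 9 genes differed widely in level. Per length (RPKM, reads per kilobase of exon scaled to the total reads of the library), Six3 stood first in WT RGCs at 48.9 ± 1.69 (SD, n = 3), followed by Six6 at 28.2 and Eya3, the most widely expressed Eya gene, at 11.1. Eya2 at 8.34, Six5 at 5.57 and Six2 at 3.26 formed a middle group in which the ranges of neighbours overlapped, and Eya1 stood at 2.03. Eya4 at 0.411 and Six4 at 0.237 were the lowest, and their ranges overlapped each other. The order in mKO RGCs was the same from the first to the fourth place, with levels per length of 35.6 for Six3, 33.4 for Six6, 13.6 for Eya3 and 7.99 for Eya2. Below them, Six2 stood behind Eya1 in mKO RGCs, at 1.56 against 2.62, and Six4 stood before Eya4, at 0.555 against 0.462, where the ranges overlapped. The place of Six2 and Eya1 depends on the length used: with the longest transcript, Eya1 stood before Six2 in WT RGCs too, at 3.63 against 3.26.

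**Figure D1:**
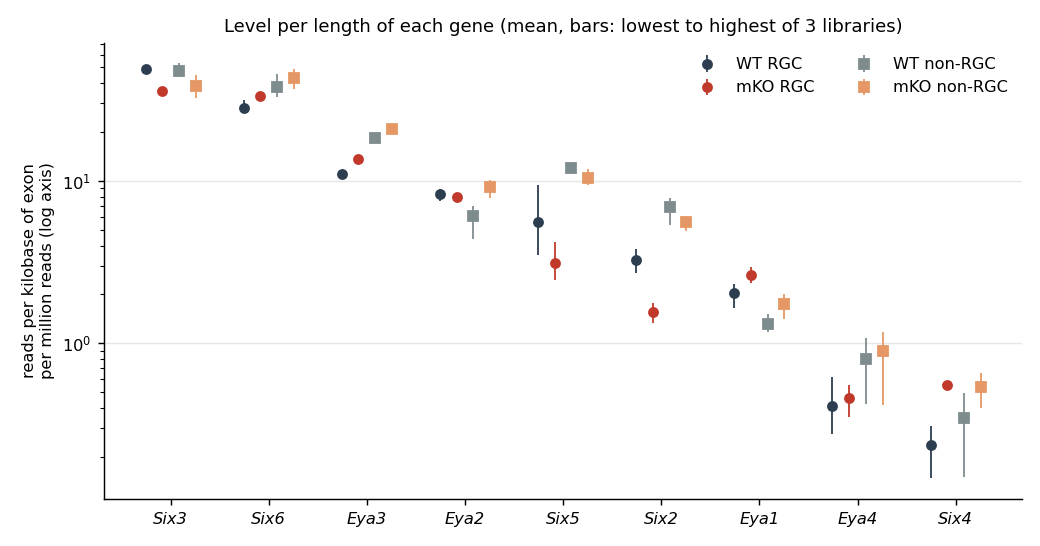
Level per length of each gene in RPKM (log axis), with genes in the order of their WT RGC means; points are the mean of 3 libraries in each of the 4 groups and bars run from the lowest to the highest library. Six3, Six6 and Eya3 were the 3 highest genes in every group, and Eya4 and Six4 were the lowest.

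The non-RGC libraries had the same 3 genes at the top. Six3 and Six6 overlapped there, with levels per length of 47.9 and 38.1 in WT non-RGCs and 38.5 and 42.9 in mKO non-RGCs, and Eya3 followed at 18.46 and 20.98. Six5, whose gene lies beside the myotonic dystrophy kinase gene Dmpk, stood at 11.97 in WT non-RGCs compared to 5.57 in WT RGCs, and Six2 stood at 6.91 compared to 3.26. Eya1 was at 1.31 in WT non-RGCs and at 2.03 in WT RGCs. These differences between fractions were not tested, since the tables were normalized separately.

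In RGCs, Six2 and Six3 were lower in mKO and Six4 was higher, and the other 6 genes did not pass the test. Thus 3 of 9 genes had an adjusted p under 0.05 (limma, Benjamini-Hochberg over all 16085 genes tested), against a background of 37.5% of all genes tested. The share among these genes was close to that background, as it was by direction, with 1 of 9 higher against 16.3% and 2 of 9 lower against 21.2% of all genes. By a p-value under 0.05 with a fold change of at least 1.5, 2 of the 9 genes (Six2 and Six4) were called against 16.3% of all genes. Their log2 fold changes had a median of 0.11, compared to -0.0024 over all genes tested.

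**Figure D2:**
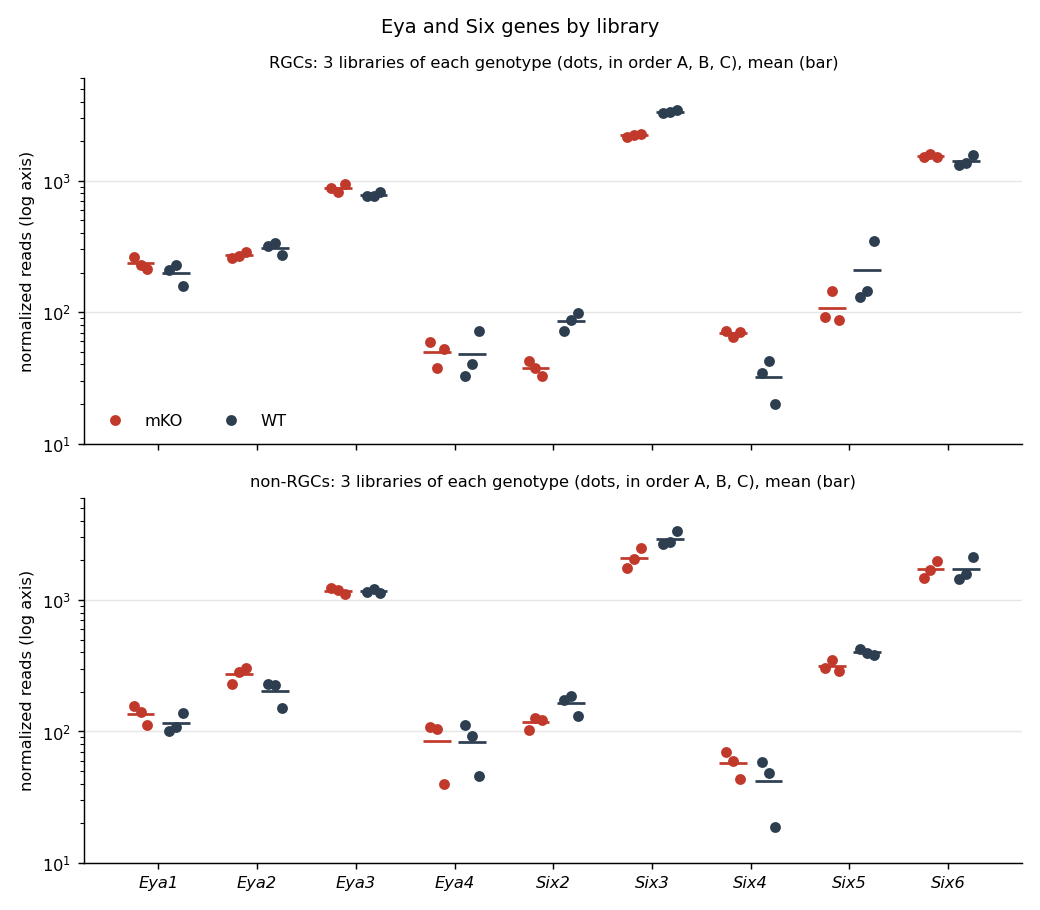
Normalized reads of each gene (log axis) in RGCs (top) and non-RGCs (bottom); each dot is a library, in the order A, B and C, with mKO in red and WT in dark blue, and bars are means of 3 libraries. In RGCs the mKO dots of Six2 and Six3 all lie below those of WT and the mKO dots of Six4 all lie above them, while the other 6 genes overlap.

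Six2, which keeps nephron progenitors in an undifferentiated state in the kidney, lies on chromosome 17 from 85684277 to 85688274 on the minus strand of GRCm38 (ENSMUSG00000024134). It was counted at 42.8, 37.8 and 32.9 normalized reads in mKO RGCs, from 49, 41 and 35 reads, and at 72.0, 87.9 and 99.2 in WT RGCs, from 71, 81 and 85 reads. Every mKO library was below every WT library. Six2 was 2.24-fold lower in mKO RGCs (log2 fold change -1.17 ± 0.203 SE, adjusted p = 0.00487 by limma), and its adjusted p was 0.00463 to 0.0245 when each library was left out in turn. With the trend of each library with GC content removed, the log2 fold change was -0.58 and the adjusted p was 0.104.

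Six2 and Eya1 are also markers of nephron progenitors, so kidney genes were examined beside it. Of 12 genes of kidney tubule and glomerulus, 1 had 3 reads or fewer in all WT RGC libraries and 6 did in mKO RGCs, and the list summed to 262.5 to 391.9 normalized reads in WT RGCs and to 176.1 to 242.6 in mKO RGCs. Umod, a protein of the kidney tubule, had 28, 35 and 34 reads in WT RGCs and 0, 2 and 0 in mKO RGCs. The WT libraries thus held a low level of Umod and some other kidney transcripts, which were nearly absent from mKO libraries. The 5 other nephron progenitor markers summed to 919.3 to 1389 normalized reads in WT RGCs and to 666.3 to 741.3 in mKO RGCs, most of them from Crym, which is also expressed in retina. Cited1 had 105.4, 96.6 and 170.4 normalized reads in WT RGCs and 70.7, 91.3 and 68.7 in mKO RGCs. Osr1 (0 to 29 reads in WT, 0 to 10 in mKO), Meox1 (5 to 35 and 2 to 13) and Wt1 (0 to 1 and 1 to 4) were low and overlapped or touched between genotypes. The photoreceptor list of 8 genes was also lower in mKO RGCs (5598 to 5992 against 6619 to 9752). Other lists moved the opposite way: blood genes summed to 284.0 to 344.7 in mKO RGCs against 120.5 to 136.5 in WT RGCs, and retinal pigment epithelium genes to 403.7 to 600.3 against 223.6 to 302.3. Both were also higher in mKO non-RGCs, at 563.9 to 865.6 against 129.0 to 212.9 for blood and 1271 to 1400 against 310.7 to 510.7 for pigment epithelium. Whether kidney RNA or cell composition has a part in the Six2 difference was not tested.

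Six3, a repressor that is required for forebrain and eye formation, lies 54974 bases from Six2 on chromosome 17, from 85613608 to 85629302 on the plus strand (ENSMUSG00000038805). It was counted at 2164, 2242 and 2286 normalized reads in mKO RGCs and at 3250, 3315 and 3424 in WT RGCs. The libraries of a genotype lay close together, and the groups were well apart. Six3 was 1.49-fold lower in mKO RGCs (log2 fold change -0.58 ± 0.0501 SE, adjusted p = 0.000651 by limma), the smallest error among the 9 genes. It was called with each library left out, and with the GC content trend removed at a log2 fold change of -0.31 (adjusted p = 0.0108 by limma). With the trend with read density (reads per base of exon) removed as well, the value was -0.10 and the adjusted p was 0.198. The antisense genes Six3os1 and Gm28528 share 106 and 168 exonic bases with Six3. Gm28528 was not analysed here, and the Six3os1 log2 fold change in RGCs was -0.16 (adjusted p = 0.211 by limma). Counting by strand is not stated, so reads in the shared stretches cannot be told apart.

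Six4, which acts with its paralogues in muscle and kidney precursors, lies on chromosome 12 from 73099609 to 73113456 on the minus strand (ENSMUSG00000034460). It was counted at 72.4, 64.5 and 70.6 normalized reads in mKO RGCs, from 83, 70 and 75 reads, and at 34.5, 42.3 and 19.8 in WT RGCs, from 34, 39 and 17 reads. Every mKO library was above every WT library, and WT library C was the lowest of all. Six4 was 2.21-fold higher in mKO RGCs (log2 fold change 1.14 ± 0.293 SE, adjusted p = 0.0212 by limma). Leaving out mKO library A, B or C raised the adjusted p to 0.074, 0.063 and 0.0716 respectively, while the log2 fold change stayed at 1.11, 1.19 and 1.13. Leaving out any WT library kept the call, with the value at 0.84 without WT library C. With the GC content trend removed, the log2 fold change was 0.91 (adjusted p = 0.087 by limma), and with both trends removed it was 0.67 (adjusted p = 0.122). The list of 8 skeletal muscle markers, a tissue where Six4 is active, overlapped between mKO RGCs (183.5 to 243.4) and WT RGCs (164.6 to 343.0). A list of 10 mesenchyme markers summed to 5034, 16010 and 266.1 normalized reads in WT RGC libraries A, B and C. In mKO RGCs it summed to 7018, 642.7 and 2188. WT library C was thus lowest both for this list and for Six4. The part of mesenchyme in the Six4 count was not tested.

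Six6, the other factor of retinal progenitors, lies 154709 bases from Six4 on chromosome 12 and did not pass the test in RGCs. Its counts were 1510, 1584 and 1526 normalized reads in mKO RGCs and 1319, 1364 and 1557 in WT RGCs. Only WT library C reached the mKO level. The log2 fold change was 0.13 ± 0.0731 SE (adjusted p = 0.21 by limma), and it was 0.20 with an adjusted p of 0.00626 without WT library C. The gene 4930447C04Rik, which runs against Six6 and shares 192 exonic bases with it, had 264.4 to 359.5 normalized reads in mKO RGCs and 128.1 to 205.4 in WT RGCs (log2 fold change 0.93, adjusted p = 0.0104 by limma), and with both trends removed its value was 0.27 (adjusted p = 0.445).

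Six5 had the widest spread of the 9 genes among the WT RGC libraries. It was counted at 91.6, 145.7 and 86.6 normalized reads in mKO RGCs and at 130.8, 145.5 and 350.1 in WT RGCs. WT library C was far above the other libraries. Among WT RGC libraries it also had the highest sums of retinal progenitor markers (17800 against 10620 and 11280) and of photoreceptor markers (9752 against 6619 and 6815). It was highest in most other lists too, such as amacrine and horizontal cell markers (7546 against 6419 and 7001) and glia markers (6450 against 4402 and 4659). It was lowest for RGC, mesenchyme and skeletal muscle markers. The log2 fold change was -0.84 ± 0.396 SE (adjusted p = 0.138 by limma), and it was -0.39 without WT library C. The part of these marker levels in the Six5 count was not tested.

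None of the Eya genes passed the test in RGCs. Eya1, which is required for ear and kidney, was counted at 262.6, 227.7 and 213.6 normalized reads in mKO RGCs and at 207.8, 229.1 and 158.7 in WT RGCs. The groups overlapped, with a log2 fold change of 0.25 (95% confidence interval -0.13 to 0.64, adjusted p = 0.263 by limma). The study lists Eya1, Eya2 and Six3 among genes of the RGC lineage. Its RT-PCR on purified RGCs found no significant difference in Eya1 or Eya2. Eya2 was counted at 259.1, 269.2 and 288.0 normalized reads in mKO RGCs and at 320.3, 333.3 and 274.3 in WT RGCs. Only WT library C fell within the mKO range, and the log2 fold change was -0.18 (95% confidence interval -0.43 to 0.07, adjusted p = 0.225 by limma). Without WT library C it was -0.26 with an adjusted p of 0.0303. Eya3 was counted at 878.6, 818.8 and 949.5 normalized reads in mKO RGCs and at 770.3, 761.0 and 819.3 in WT RGCs. These ranges touched at one library of each genotype, and the log2 fold change was 0.17 (95% confidence interval -0.0039 to 0.34, adjusted p = 0.111 by limma). Eya4 was the most weakly counted Eya gene, at 37.8 to 59.3 normalized reads in mKO RGCs and 32.4 to 72.4 in WT RGCs, and its confidence interval of -0.69 to 0.90 covered both directions.

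The genotype difference in these libraries moved with the base composition of genes. The members ran from 42.1% GC (Eya4), above 12.4% of the genes tested in RGCs, to 61.2% (Six2). Over 12262 genes, the Spearman correlation of the log2 fold change with exonic GC content was -0.718 in RGCs, a description across genes, which are not independent. When genes were divided by GC content into 5 equal groups, the median fold change (log2) fell from 0.35 in the lowest to -0.45 in the highest. Six2 and Six5 have 61.2% and 61.1% GC, above 97.7% and 97.6% of the genes tested in RGCs, and both lay below the 10th percentile of their group, which was at -0.75. Six4 (43.1% GC) lay in the lowest group, with Eya1 and Six6, and was above the 90th percentile of that group, which was at 0.78, whereas Eya1 and Six6 were below its median. Six3 (54.0% GC) lay just below the 10th percentile of its group, which was at -0.54.

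**Figure D3:**
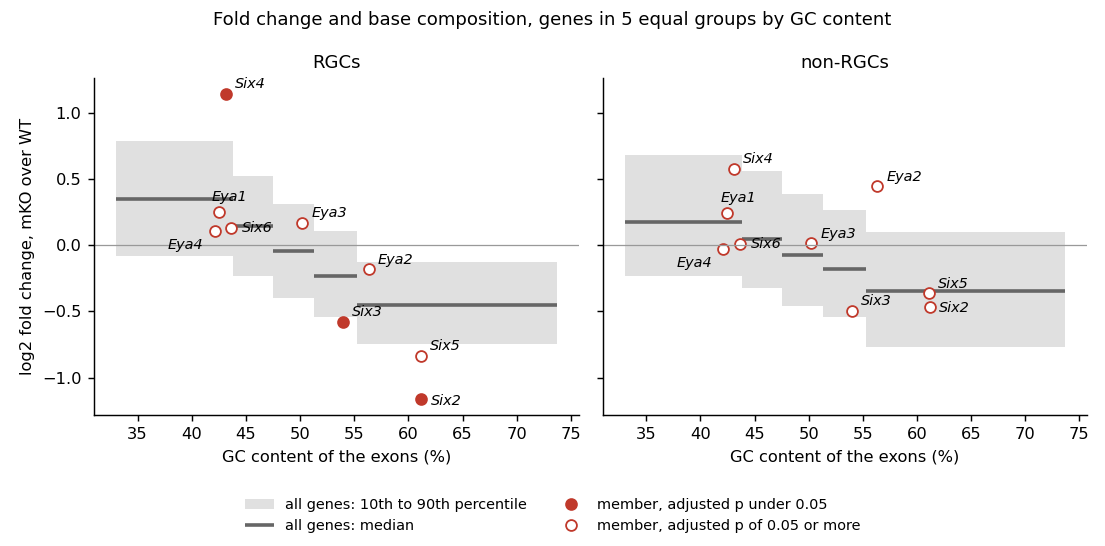
Log2 fold change of mKO over WT against exonic GC content in RGCs (left) and non-RGCs (right); grey bars are the median and grey areas the 10th to 90th percentile of all genes in 5 equal groups by GC content, and circles are the 9 genes, filled where the adjusted p was under 0.05. The medians fall with GC content, from 0.35 to -0.45 in RGCs, and in RGCs Six4 lies above and Six2, Six3 and Six5 lie below the grey areas of their groups.

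When the GC content trend of each library was removed, 1 of 9 genes (Six3) was called in RGCs, against 13.8% of all genes tested. With the read density trend also removed, 0 of 9 were called by limma, against 7.81%, and 3 of the 9 genes had an unadjusted p under 0.05, against 25.8% of all genes. These were Six2 (log2 fold change -0.77, adjusted p = 0.0688), Six4 and Eya3 (0.25, adjusted p = 0.0832). The directions of Six2, Six3, Six4, Six5 and Eya3 were kept under both corrections, while Eya1, Eya2 and Eya4 changed sign under both and Six6 under the GC correction alone.

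**Figure D4:**
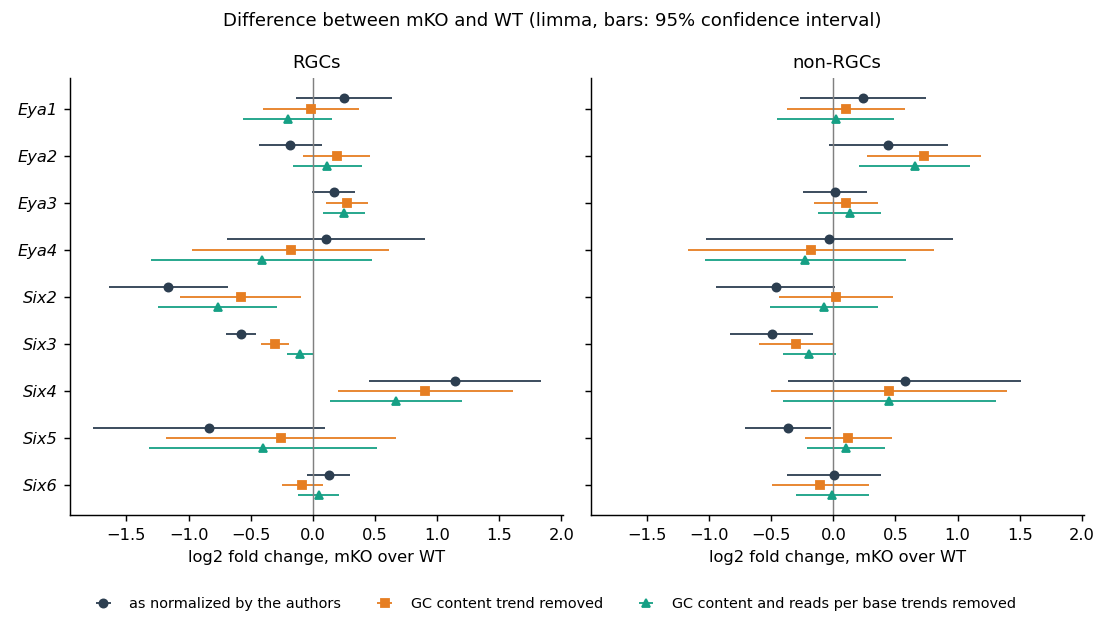
Log2 fold change of mKO over WT for each gene in RGCs (left) and non-RGCs (right), with 95% confidence intervals from limma, with the normalization of the authors (circles), with the GC content trend of each library removed (squares) and with the read density trend removed as well (triangles). In RGCs the value of Six3 moved from -0.58 to -0.31 and -0.10, that of Six2 from -1.17 to -0.58 and -0.77, and that of Six4 from 1.14 to 0.91 and 0.67.

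In non-RGCs, 0 of 9 genes had an adjusted p under 0.05 by limma, against 10.6% of the 15326 genes tested, and 2 of the 9 (Six3 and Six5) had an unadjusted p under 0.05, against 29.9%. The groups did not overlap for 4 genes, against 36.7% of all genes. Eya2 was above WT, against 17.5% of all genes, and Six2, Six3 and Six5 were below, against 19.2%. In RGCs the groups had not overlapped for 3 genes, against 53% of all genes, with 1 above (24.8%) and 2 below (28.2%). By a p-value under 0.05 with a fold change of at least 1.5, 0 of 9 genes were called in non-RGCs, against 15.7%. With the GC content trend removed 0 of 9 were called by limma, against 1.43%, and with both trends removed 0 of 9, against 1.77%, with 2 and 1 of the 9 at an unadjusted p under 0.05, against 23.5% and 24% of all genes.

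Six3 in non-RGCs was counted at 1743, 2041 and 2473 normalized reads in mKO and at 2677, 2762 and 3338 in WT. Every mKO library was below every WT library, but the mKO libraries were more widely spread than in RGCs. The log2 fold change was -0.50 ± 0.15 SE (adjusted p = 0.0619 by limma), and it passed the threshold only when mKO library C was left out (-0.63, adjusted p = 0.0317). Six2 was counted at 103.3, 127.6 and 121.4 in mKO non-RGCs and at 174.1, 184.8 and 131.4 in WT non-RGCs, which were again apart but by little. Its log2 fold change was -0.46 ± 0.214 SE (adjusted p = 0.178 by limma), and 0.02 with the GC content trend removed. The Umod reads differed between genotypes there too, at 32, 32 and 30 in WT and 1, 0 and 0 in mKO non-RGCs. The whole list of 12 kidney genes overlapped there, at 225.9 to 460 normalized reads in mKO and 428.6 to 520.6 in WT. The 5 other nephron progenitor markers overlapped as well (1153 to 1824 in mKO, 1706 to 1899 in WT). Six5 was counted at 302.1, 351.0 and 288.1 in mKO and at 425.9, 397.7 and 384.8 in WT non-RGCs (log2 fold change -0.36, adjusted p = 0.148 by limma), and its sign changed with the GC content trend removed (0.12).

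Eya2 in non-RGCs was counted at 231.2, 283.9 and 302.2 normalized reads in mKO and at 229.2, 226.4 and 151.2 in WT, so that every mKO library was above every WT library, the closest pair by a margin of a few reads. The log2 fold change in non-RGCs was 0.44 ± 0.215 SE (adjusted p = 0.197 by limma), and it was 0.73 (adjusted p = 0.0871) with the GC content trend removed. In RGCs, where the groups overlapped, the value was -0.18, and it was 0.19 with the GC content trend removed. The summed RGC markers were also higher in mKO non-RGCs than in WT non-RGCs (4842 to 6315 against 3687 to 3915), and their part in the Eya2 count was not tested. Six4 had a log2 fold change of 0.58 in non-RGCs (95% confidence interval -0.36 to 1.51, adjusted p = 0.381 by limma), with 43.8 to 70.1 normalized reads in mKO and 18.8 to 58.7 in WT. Eya1, Eya3, Eya4 and Six6 overlapped between genotypes, with log2 fold changes of 0.24, 0.01, -0.03 and 0.01.

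The difference between the fractions was tested directly as an interaction over all 12 libraries. By limma, 0 of 9 genes had an adjusted p under 0.05, against 0.0969% of the 16517 genes tested, and 2 of the 9 had an unadjusted p under 0.05, against 9.66%. The genes called over the whole table, 16 in all, numbered 237 without mKO non-RGC library A and 7 to 32 without each other library. The 2 members were Six2, whose genotype effect was lower in RGCs by a log2 difference of -0.70 (95% confidence interval -1.33 to -0.07, adjusted p = 0.497), and Eya2, with a difference of -0.62 (95% confidence interval -1.16 to -0.09, adjusted p = 0.478). For Six3 the interval of the difference ran from -0.44 to 0.28 and for Six4 from -0.63 to 1.76. Thus a genotype effect that differs between RGCs and non-RGCs was not detectable for any of these genes at this number of libraries.

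The partners of these proteins were examined as a list of 24 cofactors, targets and eye field factors, all of which were tested. In RGCs 11 of the 24 were called, against 37.5% of all genes, 2 higher against 16.3% and 9 lower against 21.2%, with a median log2 fold change of -0.27. Of the Dach cofactors, Dach2 was higher in mKO RGCs (log2 fold change 0.94, adjusted p = 0.00372 by limma), whereas Dach1 had a value of -0.10 (adjusted p = 0.112). Slc12a2, an ion transporter, was the other higher gene at 0.30 (adjusted p = 0.00857 by limma). The eye field and progenitor factors Rax (-0.87), Lhx2 (-0.68) and Otx2 (-0.45), the optic stalk and astrocyte factor Pax2 (-0.66) and the cyclin gene Ccnd1 (-0.67) were lower. So were the Groucho corepressors Tle1 (-0.27) and Tle3 (-0.52), through which Six3 represses transcription, and their short relative Aes (-0.78). Pax6, which works beside Six3 in the eye field, had a log2 fold change of -0.21 (adjusted p = 0.0905 by limma). With the GC content trend removed 8 of the 24 were called, against 13.8% of all genes. With both trends removed 4 were called, against 7.81%, namely Dach1, Meis1, Meis2 and Rax. Of these, Rax alone had also been called with the normalization of the authors. Dach1 moved from -0.10 to -0.29 (adjusted p = 0.0138 by limma) with both trends removed, while Dach2 moved from 0.94 to 0.16 (adjusted p = 0.543).

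In non-RGCs 5 of the 24 partners were called, all lower, against 6.43% of all genes lower and 4.18% higher. Pax2 stood at 15.5 to 44.1 normalized reads in mKO and at 109.3 to 152.2 in WT non-RGCs, with a log2 fold change of -2.16 (adjusted p = 0.0109 by limma). The others were the cofactor Sobp (-0.54), Lhx2 (-0.59), Otx2 (-0.48) and Tle3 (-0.62). With the GC content trend removed 0 of the 24 were called by limma in non-RGCs, against 1.43% of all genes, and with both trends removed Pax2 alone was, against 1.77%. In the interaction 0 of the 24 had an adjusted p under 0.05.

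The genes whose pattern was most like that of the called members over the 12 libraries were sought among 12005 genes, as a description. For Six2 these were Slc32a1, Itpka and Prph2, with Pearson correlations of log2 normalized reads of 0.98, 0.98 and 0.978. Slc32a1, the vesicular transporter of inhibitory neurons, and Prph2, a photoreceptor disc protein, have GC contents of 61.9% and 53.5%, and Itpka has 61.1%. Six3 was most like Pfn2 (0.991), BC005537 (0.991) and Ppm1a (0.99). These have 49.9%, 43.4% and 42.4% GC, compared to 54.0% for Six3. Six4 was most like Grik2 (0.971), Rbm26 (0.947) and Fgd4 (0.935), which have 37.6% to 39.9% GC. With the mean of each group removed, these correlations were 0.782, 0.485 and 0.829 for Six2, 0.951 to 0.977 for Six3 and 0.867 to 0.942 for Six4. Among the members, Six3 and Six6 had a correlation of 0.0196 over the libraries as they were and of 0.919 with group means removed. Six2 had 0.911 and 0.488 with Six5 and -0.875 and -0.461 with Eya1. Six4 had -0.373 and -0.928 with Six6 and -0.828 and -0.75 with Six3. The points share their libraries, depth and base composition, and each group contributed 3 of them.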

How the data were processed

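Libraries of poly-A RNA from CD90-bound (RGC) and remaining (non-RGC) cells of P0 mKO and WT retinas were compared, with 3 per genotype and fraction. Per the labels, single-end reads were aligned to mm10 with STAR 2.3.1z4 and counted with featureCounts; the file names give primary alignments with duplicates removed. The deposited signal of a gene is its count normalized with DESeq size factors and then averaged by the authors over the 3 libraries of a group. Their fold change, log2 fold change, p-value and adjusted p-value columns were not used; other columns left out numbered 0.

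The reads of each library were recovered from the digits of these means, with a unique solution for 99.97% to 100% of genes with reads; with altered size factors, 0 of 1157 to 1324 genes per group were solved. Recovered reads were normalized again with the same size factors and tested with limma 3.58.1 (R 4.3.3, mean-variance trend) on log2(value + 1). A gene was tested if its average was 10 or more in either group, and p-values were adjusted by Benjamini-Hochberg. Fold changes of genes with few reads are understated on this scale. No count model was run on the recovered reads, since the deposited columns are not counts; voom weights on these reads were an alternative. On simulated RGC libraries, 198 of 200 changed genes were called, with 10 false calls among 15871 genes tested; for non-RGCs, 193 and 9 among 15114. With a simulated GC trend in RGCs, 338 unchanged genes among 15012 tested were called, and 5 once the trend was removed. The rates of missed and false calls in the sequenced libraries, where library C stood apart in both WT groups, were not tested. Gene positions, lengths and GC content are from GENCODE M21 on GRCm38. Promoters are from RefSeq. GC content was known for 95.1% of genes averaging 50 or more, over which trends (lowess, share 0.3) were taken.

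The members, the partner list and the 13 marker lists were chosen with earlier results of these data known. Named genes are the 9 members, Ezh2, called partners (1 is not reported here), overlapping genes and the 3 genes most like each member called in RGCs; Umod, the nephron progenitor markers and the partners Dach1, Pax6, Meis1 and Meis2 were named after their values were seen. The labels do not say that libraries came from separate animals, so p-values measure the spread between libraries. With 3 libraries against 3, an exact permutation test cannot go below p = 0.1, so none was run. Alternatives were a pseudocount of 0.5, genes with any read, library totals, voom weights, removal of trends, the fold rule, transcript length and leaving out each library.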

Additional observations from a re-analysis of the deposited data

How the results depend on the processing

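Of the 9 genes, those called in RGCs numbered 3; the number was 5 with library totals (Eya3 and Six6 added), 1 with the GC content trend removed, 0 with both trends removed, and 2 to 6 when each library was left out, with 6 without WT library C. In non-RGCs it was 0, and 0 to 1 with a library left out; in the interaction it was 0 in each of these. Over all genes, 6027 were called in RGCs, 2102 with the GC content trend removed, 1186 with both removed, and 3770 to 8183 with a library left out. In non-RGCs 1626 were called, against 207, 256 and 141 to 1614. Library totals moved the median log2 fold change of all genes to 0.12 in RGCs and 0.15 in non-RGCs, and the calls from 2622 higher and 3405 lower to 3857 and 2238 in RGCs, and from 641 and 985 to 1347 and 453 in non-RGCs.

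Changes of sign were in values that had not passed the test. With the GC content trend removed, the RGC log2 fold change was -0.0151 for Eya1, 0.19 for Eya2, -0.18 for Eya4 and -0.0848 for Six6, and the non-RGC value was 0.0245 for Six2, 0.12 for Six5 and -0.11 for Six6. With both trends removed, the RGC value was -0.20 for Eya1, 0.12 for Eya2 and -0.41 for Eya4, and the non-RGC value was 0.10 for Six5 and -0.0073 for Six6. In non-RGCs Eya4 was at 0.14 with library totals and 0.0338 with voom weights, and Six6 was at -0.0036 with voom weights. The interaction of Eya1 was -0.0363 with library totals, -0.0307 with voom weights, -0.11 with the GC content trend removed and -0.22 with both removed, and with both removed that of Eya4 was -0.19 and that of Six3 was 0.0882. With a library left out, Eya4 ranged from -0.13 to 0.43 in RGCs and from -0.41 to 0.44 in non-RGCs, Eya3 from -0.017 to 0.0584 and Six6 from -0.11 to 0.17 in non-RGCs; in the interaction, Eya1 ranged from -0.14 to 0.12, Eya4 from -0.33 to 0.52, Six3 from -0.20 to 0.0481 and Six6 from -0.0388 to 0.24. The trend removal changes the values themselves; other causes were not tested.

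No paired analysis was possible because the deposited columns hold means of a group without replicate numbers. Levels per length moved beyond their spread for 6 of the 9 genes with the longest transcript in place of all exons. Six2, Six4 and Eya4 had 17 to 85 reads in each RGC library, the lowest counts among the members there, which limits the precision of their values.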
